A study of Ovis aries with 41 samples.

Results

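Blood vessels are lined by endothelial cells, which share a set of junction, adhesion and receptor genes. The expression of 10 such genes was followed along the tail skin of Improved Jezersko–Solčava (IJS) rams: PECAM1, CDH5, EMCN, KDR, FLT1, TEK, VWF, PLVAP, CD300LG and APLNR. They were taken by symbol from the RefSeq gene counts, as a set chosen with earlier results of these data known, and all 10 were found among 31182 counted genes and passed the filter on low counts. Skin punches from adult rams were taken at the tail base, at the middle of the tail and near its tip. The groups were 3 D/D rams, homozygous for the derived allele of the HOXB13 promoter that carries an insertion and is linked to long tails, and 4 A/A rams, homozygous for the ancestral allele and short-tailed. All rams were of the same breed, and mid-tail and tip skin came from farther away from the base in the longer tails of D/D rams. Each ram and position was represented by 2 libraries, except the mid-tail of D/D ram 871869 with 1 library.

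Endothelial cells hold the vessel wall together with CDH5 and PECAM1 at their junctions and receive growth signals through the VEGF receptors KDR and FLT1 and the angiopoietin receptor TEK. Not every member marks every vessel. In mice and humans CD300LG is found on capillaries and some venules, PLVAP forms the diaphragms of fenestrae and caveolae, and APLNR, the receptor for apelin, is a gene of veins and of sprouting vessels. Bulk skin holds all vessels together with epidermis, dermis, follicles and fat, so fewer endothelial cells and less RNA per cell cannot be told apart.

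The libraries held 9177395 to 23431409 counts. Libraries of the same ram and position were summed, so that a ram counted once per position, and values are CPM (counts scaled to a common library size) of these ram sums after TMM scaling. All 10 members were detected in every library, the lowest count in a library being 6 for CD300LG and 15 for APLNR, against 772 for PECAM1. A/A ram 835507 stood apart from the other rams. All 10 members were higher at its tip than at its base, against 1 to 5 members in the other 6 rams. In this ram the summed CPM of 13 mural cell markers (pericytes and vascular smooth muscle) was 3290 in mid-tail skin and 3520 in tip skin, against 1500 in base skin. Its 7 adipocyte markers summed to 3100 in base skin, 3530 in mid-tail skin and 3270 in tip skin, whereas sums in the other 6 rams reached at most 1230. These sums mainly follow PLIN4, which averaged 1020 ± 1290 CPM at the A/A base and 1110 ± 1290 CPM at the A/A tip. ADIPOQ came next, with 206 ± 177 CPM and 106 ± 58.5 CPM (SD, n = 4 rams). The part of these cells in the results was not tested. Values without this ram are given for some of the results of the members, and the others include it.

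CD300LG was lower at the tip than at the base in 3 of 3 D/D rams and 3 of 4 A/A rams. This gene lies on chromosome 11 at 43478625–43490495 of ARS-UI_Ramb_v3.0 and encodes a glycoprotein of the endothelial surface that in mice binds L-selectin of lymphocytes. In D/D ram 871787 its level was 5.3 CPM at the base, 1.92 CPM in mid-tail skin and 1.06 CPM at the tip. D/D ram 871868 had 6.55, 1.97 and 0.836 CPM, and D/D ram 871869 had 4.21, 1.2 and 0.809 CPM at the same positions. Every D/D ram thus had its highest level at the base and its lowest at the tip. Base and tip values of D/D rams did not overlap, and the share of all genes separated in this way was not computed. Among A/A rams, CD300LG was 7.78, 2.78 and 1.58 CPM in ram 871772 at base, mid-tail and tip. It was 5.06, 3.39 and 2.2 CPM in A/A ram 871784 and 8.61, 4.32 and 2.48 CPM in A/A ram 871932. The same order of positions was seen in these 3 A/A rams. A/A ram 835507 went the other way, with 7.24 CPM at the base, 11 CPM in mid-tail skin and 9.38 CPM at the tip.

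**Figure D1:**
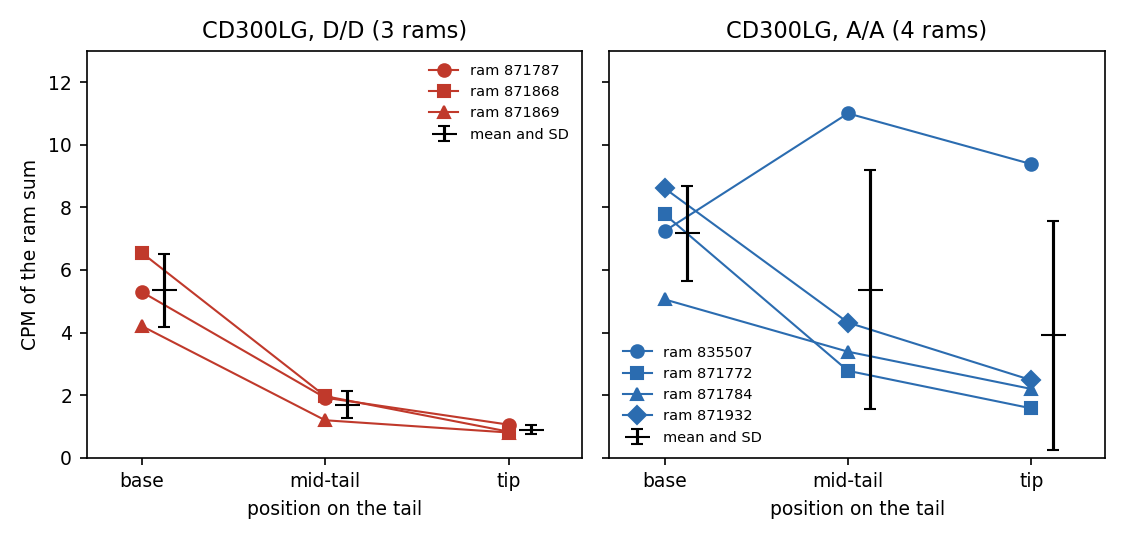
CD300LG level (CPM of the ram sum, vertical axis from 0) by position, each ram drawn as 1 line from base over mid-tail to tip, D/D rams on the left and A/A rams on the right, and black bars for mean and SD. All 3 D/D rams end between 0.809 and 1.06 CPM at the tip, and A/A ram 835507, at 9.38 CPM, lies above the other A/A rams, which end between 1.58 and 2.48 CPM.

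At the D/D tip CD300LG averaged 0.902 ± 0.138 CPM, against 5.35 ± 1.17 CPM at the D/D base (SD, n = 3 rams). This fall of 2.56 on the log2 scale (SE 0.39), or 5.9-fold, passed the quasi-likelihood test of edgeR with the ram as block (adjusted p = 0.00804, Benjamini-Hochberg over 19444 genes). CD300LG was the 1 member of 10 called at the D/D tip, where 0.566% of all genes tested were called. Leaving out any single D/D ram kept the size of the change (log2 fold changes of -2.69 to -2.35) but ended the call, with an adjusted p of 0.1 to 0.122. These fits called 1 to 4 genes of the whole table at the D/D tip, against 110 with all rams. At the A/A tip CD300LG averaged 3.91 ± 3.67 CPM, against 7.17 ± 1.52 CPM at the A/A base (SD, n = 4 rams). The log2 fold change was -1.27 (SE 0.32, edgeR adjusted p = 0.0562), so that none of the 10 members was called at the A/A tip, where 1.63% of all genes were. At an unadjusted p under 0.05 there were 2 members at the A/A tip, CD300LG and KDR, and 14.4% of all genes. DESeq2 called CD300LG at the A/A tip (adjusted p = 0.00351), and limma-voom called no member. Without ram 835507 the A/A change was -1.77 and passed in edgeR (adjusted p = 0.00358).

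Over all 7 rams, with 1 effect of position for both genotypes, CD300LG was 3.51-fold lower at the tip than at the base (log2 fold change -1.81, SE 0.28, edgeR adjusted p = 0.00117). It was the 1 member called in this fit, in which 4.99% of all genes were called. Differential expression in the strict sense (adjusted p of at most 0.01, with a log2 fold change beyond 1 in size) was also met by CD300LG and by 1.28% of all genes. Without ram 835507 the log2 fold change was -2.15. CD300LG was lower at the tip in 6 of 7 rams, and the exact two-sided sign-flip test over rams gave p = 0.0312 (smallest possible 0.0156), or 0.489 after adjustment over the 60 exact tests computed. In this family of 60 tests no value passed after adjustment.

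At the mid-tail, CD300LG lay between base and tip in the 6 rams whose tip was lower. It averaged 1.7 ± 0.432 CPM at the D/D mid-tail (n = 3 rams) and 5.36 ± 3.78 CPM at the A/A mid-tail (SD, n = 4 rams). Over all rams the log2 fold change of the mid-tail over the base was -1.14 (SE 0.27) and missed the threshold (edgeR adjusted p = 0.0919). No member was called there, whereas 0.17% of all genes were, and 11.3% of genes had an unadjusted p under 0.05. DESeq2 called CD300LG at the mid-tail over all rams (adjusted p = 0.00431), as did edgeR without ram 835507 (log2 fold change -1.35, adjusted p = 0.00384). From the mid-tail to the tip CD300LG was lower in 7 of 7 rams, by 0.67 on the log2 scale (SE 0.28, edgeR adjusted p = 0.807; exact sign-flip p = 0.0156, the smallest possible, and 0.489 adjusted).

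The estimated positional change of CD300LG was larger in D/D rams than in A/A rams, but the difference did not pass the test. The interaction, the change from base to tip in D/D minus that in A/A, was -1.3 on the log2 scale (SE 0.5, unadjusted p = 0.0191, edgeR adjusted p = 0.789). Without A/A ram 835507 it was -0.79. Between genotypes at the same position, CD300LG of D/D rams did not overlap that of A/A rams at the mid-tail (1.2 to 1.97 CPM in D/D against 2.78 to 11 CPM in A/A) or at the tip (0.809 to 1.06 CPM in D/D against 1.58 to 9.38 CPM in A/A). At the base the groups overlapped. Such a separation was found in 8.06% of the mid-tail genes tested and in 15.1% of the tip genes. The log2 fold changes of D/D over A/A were -0.43 for base skin (SE 0.28), -1.63 for mid-tail skin (SE 0.52) and -2.13 for tip skin (SE 0.68), and their edgeR adjusted p-values were 1, 0.848 and 0.458. Without ram 835507 the mid-tail difference was -1.02 (adjusted p = 0.915) and the tip difference -1.22 (adjusted p = 0.516). Between genotypes edgeR and limma-voom called 0 genes of the whole table at every position, and DESeq2 called 18 for the base, 31 for the mid-tail and 67 for the tip, CD300LG not among them. At an unadjusted p under 0.05 edgeR had 5.63% of all genes for the mid-tail and 10.2% for the tip.

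None of the other 9 members was called at the tip in edgeR on ram sums, where 4.99% of all genes were called over all rams. Over all rams their log2 fold changes of tip over base lay between -0.31 and 0.49 with a median of 0, the median of all 19444 genes being -0.02, and 4 of the 9 were negative. At the D/D tip their median was -0.17 and at the A/A tip 0.01, against -0.01 for all genes in both genotypes. Of all 10 members, 5 were negative at the A/A tip (median -0.02), and 8 were without ram 835507 (median -0.18). At an unadjusted p under 0.05 over all rams there were 2 members, CD300LG and KDR, and 18.4% of all genes. Without ram 835507 there were 5, with TEK (-0.44), PECAM1 (-0.34) and PLVAP (-0.35) besides, of which edgeR called CD300LG alone (adjusted p 0.146 to 0.249 for the other 4). The share of all genes at an unadjusted p under 0.05 was not computed without this ram. After adjustment edgeR called 1229 of 19111 genes there. With all rams kept, the smallest adjusted p among the 9 was 0.6 at the D/D tip, 0.162 at the A/A tip and 0.0979 over both genotypes. To set CD300LG beside them within each ram, the mean log2(CPM + 0.5) of the 9 genes was taken. From base to tip this mean changed by -0.34, 0.31 and -0.27 in D/D rams 871787, 871868 and 871869, where CD300LG changed by -1.89, -2.4 and -1.85. In A/A rams 871772, 871784 and 871932 the mean changed by -0.58, -0.03 and 0.24, and CD300LG by -2, -1.04 and -1.61. In A/A ram 835507 the mean changed by 0.72 and CD300LG by 0.35. CD300LG was therefore lower at the tip relative to the other 9 members in 7 of 7 rams, by 0.36 in A/A ram 835507 and by 1.01 to 2.71 in the other 6 rams.

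**Figure D2:**
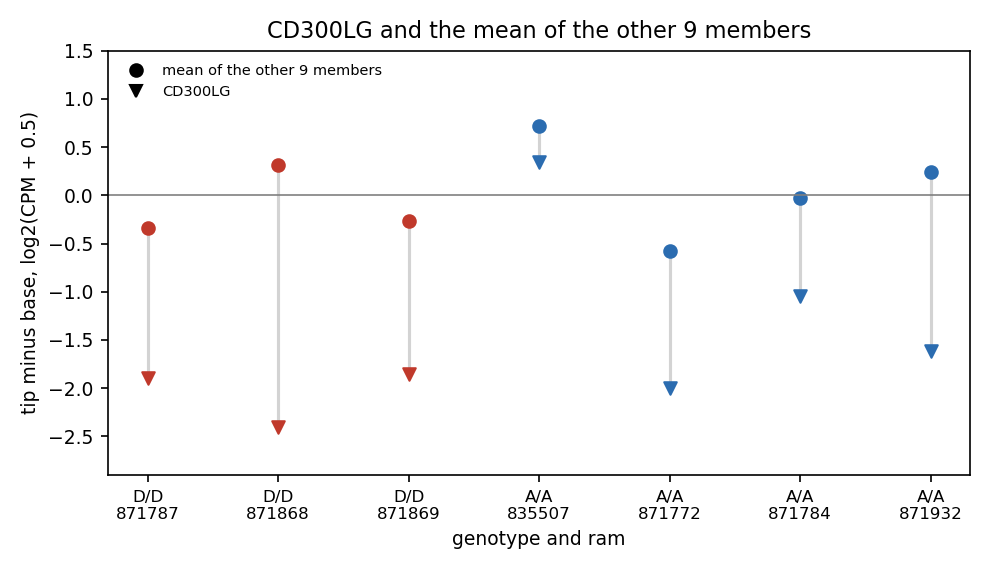
Change from base to tip on the log2(CPM + 0.5) scale (vertical axis) for CD300LG (triangles) and for the mean of the other 9 members (circles) in each ram, D/D rams in red and A/A rams in blue. The triangle lies below the circle in all 7 rams, with the smallest gap, 0.36, in A/A ram 835507.

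The junction and surface genes PECAM1, CDH5 and EMCN were not called at the tip in edgeR, which called 4.99% of all genes over all rams. PECAM1 (chromosome 11, 48252140–48351567) encodes an adhesion molecule of endothelial junctions and, at lower levels, of platelets and leukocytes. It averaged 124 ± 48.2 CPM at the D/D tip and 135 ± 19.4 CPM at the D/D base (SD, n = 3 rams). The A/A averages were 119 ± 36 CPM at the tip and 140 ± 41.3 CPM at the base (SD, n = 4 rams). The log2 fold change over all rams was -0.23 (SE 0.16, edgeR adjusted p = 0.499), with 5 of 7 rams lower at the tip. CDH5 (chromosome 14, 33698838–33736330), the cadherin of endothelial junctions, averaged 31.6 ± 12.3 CPM at the D/D tip and 27.3 ± 1.6 CPM at the D/D base, and 30.3 ± 9.55 CPM at the A/A tip and 27.8 ± 5.74 CPM at the A/A base. Its log2 fold change was 0.12 (SE 0.16, edgeR adjusted p = 0.748), and its highest levels were 52.3 CPM at the mid-tail of A/A ram 835507 and 45.5 CPM at the tip of D/D ram 871868. EMCN (chromosome 6, 24532041–24665809), a sialomucin of capillary and venous endothelium, averaged 32 ± 10.7 CPM at the D/D tip and 30.1 ± 5.9 CPM at the D/D base, and 32.9 ± 11.8 CPM at the A/A tip and 28.8 ± 12.6 CPM at the A/A base. EMCN was lower at the tip in 3 rams and higher in 4 rams (log2 fold change 0.12, SE 0.19, edgeR adjusted p = 0.808).

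Among the receptors, the smallest p over all rams was that of KDR (chromosome 6, 71265734–71315329), the main signalling receptor for VEGFA. In D/D rams 871787, 871868 and 871869 its level at base, mid-tail and tip was 33.2, 38.8 and 31.1 CPM, 27.8, 30.8 and 49.7 CPM, and 33.3, 30.5 and 34 CPM. In A/A rams 871772, 871784 and 871932 it was 39, 32.8 and 36.1 CPM, 21.2, 22.8 and 29.4 CPM, and 27.9, 40.9 and 57 CPM. In A/A ram 835507 KDR was 44.6 CPM at the base, 108 CPM in mid-tail skin and 117 CPM at the tip. Thus 5 of 7 rams were higher at the tip, and base and tip values overlapped in both genotypes. The log2 fold change over all rams was 0.49 (SE 0.17, unadjusted p = 0.00786, edgeR adjusted p = 0.0979), and the exact sign-flip test gave p = 0.109. Without ram 835507 no member had a log2 fold change above 0.37 in this comparison. KDR passed in edgeR when the 41 libraries were entered singly (adjusted p = 0.022), a fit that counts 2 libraries of a ram as separate samples.

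FLT1 (chromosome 10, 31895803–32104643), the VEGF receptor that binds VEGFA tightly but signals weakly, averaged 19 ± 5.42 CPM at the D/D tip and 17.8 ± 3.56 CPM at the D/D base, and 18.8 ± 3.93 CPM at the A/A tip and 19.1 ± 3.39 CPM at the A/A base. Its edgeR adjusted p over all rams was 0.993. TEK (chromosome 2, 95836542–95935595), the receptor for angiopoietins, averaged 11.5 ± 1.55 CPM at the D/D tip and 15.7 ± 3.62 CPM at the D/D base, and 15.4 ± 6.97 CPM at the A/A tip and 16.1 ± 6.71 CPM at the A/A base. TEK was lower at the tip in 3 of 3 D/D rams and in 2 of 4 A/A rams, and its log2 fold change over all rams was -0.27 (SE 0.2, edgeR adjusted p = 0.509).

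**Figure D3:**
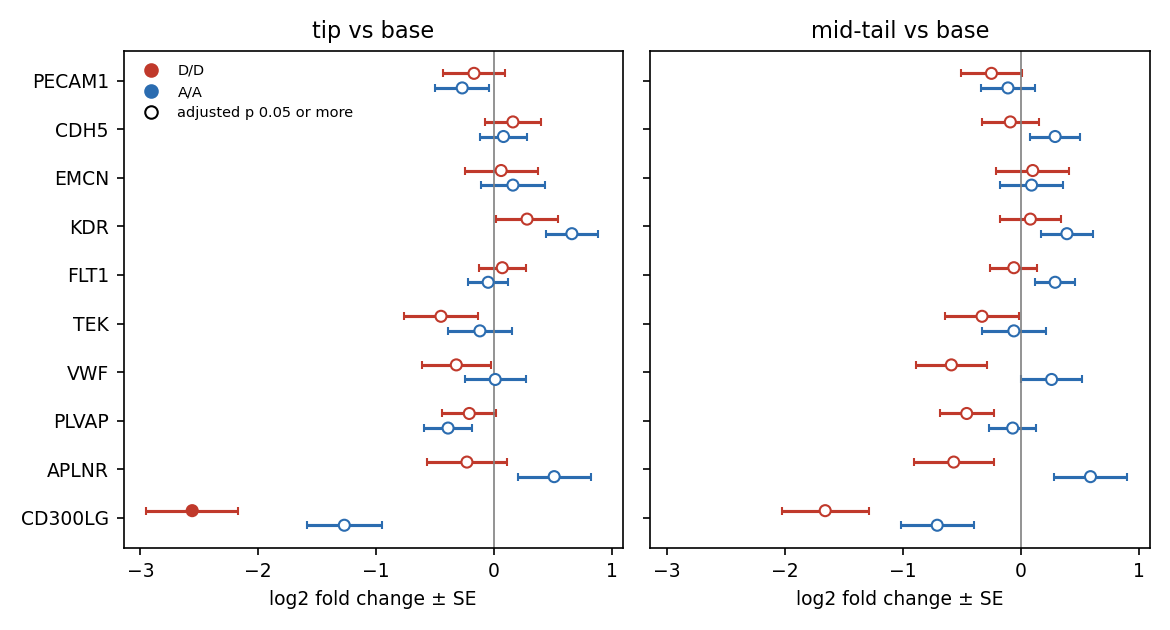
Log2 fold changes (horizontal axis, with SE as bars) of the 10 members at the tip (left) and the mid-tail (right) relative to the base, D/D in red above A/A in blue, with filled points for an adjusted p under 0.05. The filled point is CD300LG at the D/D tip (-2.56), and the other 9 members lie between -0.45 and 0.66 at the tip.

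VWF (chromosome 3, 210052637–210176248) encodes the clotting glycoprotein that endothelial cells store and release, and PLVAP (chromosome 5, 5540963–5557914) the diaphragm protein. VWF averaged 78.9 ± 31 CPM at the D/D tip and 96.3 ± 20 CPM at the D/D base, and 95.1 ± 29.2 CPM at the A/A tip and 92.7 ± 18.8 CPM at the A/A base. Its log2 fold change over all rams was -0.14 (SE 0.21, edgeR adjusted p = 0.771). At the mid-tail VWF was 59.1 to 65.5 CPM in D/D rams, against 156, 135, 44.5 and 141 CPM in A/A rams 835507, 871772, 871784 and 871932. The groups overlapped through A/A ram 871784, and the log2 fold change of D/D over A/A was -0.92 (SE 0.37, edgeR adjusted p = 0.848). The same 3 A/A rams with high VWF had 2970 to 3290 CPM of summed mural cell markers at the mid-tail, against 1020 CPM in A/A ram 871784 and 1560 to 1780 CPM in D/D rams, and the part of mural cells was not tested. PLVAP averaged 63.3 ± 23.4 CPM at the D/D tip and 71.8 ± 16.3 CPM at the D/D base, and 48.2 ± 6.53 CPM at the A/A tip and 64.4 ± 15.1 CPM at the A/A base. It was lower at the tip in 6 of 7 rams (log2 fold change -0.31, SE 0.16, edgeR adjusted p = 0.311; exact sign-flip p = 0.0469, adjusted 0.489).

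APLNR (chromosome 15, 79273577–79277201) was higher at the base of every D/D ram than at that of any A/A ram, a difference that did not pass in edgeR. Its level there was 5.83, 8.76 and 7.55 CPM in D/D rams 871787, 871868 and 871869, against 2.38, 2.47, 2.81 and 4.13 CPM in A/A rams 835507, 871772, 871784 and 871932. The groups did not overlap, a separation seen in 4.69% of all genes tested there. The log2 fold change of D/D over A/A was 1.32 (SE 0.29, 2.49-fold, unadjusted p = 0.00112), but the edgeR adjusted p was 1. The exact test over all assignments of the rams gave p = 0.0286, the smallest that 3 against 4 rams allow, and 0.489 after adjustment. DESeq2 called APLNR (adjusted p = 0.0205) among 18 genes of the table, whereas edgeR and limma-voom called 0 genes at the base. At an unadjusted p under 0.05 edgeR had 3.2% of all genes at the base and, among the members, APLNR alone. The difference was 1.18 to 1.54 on the log2 scale with any single ram left out.

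At the mid-tail and tip APLNR overlapped between genotypes. It was 4.22, 4.13 and 6.52 CPM at the mid-tail and 4.67, 8.64 and 5.62 CPM at the tip of D/D rams 871787, 871868 and 871869. In A/A rams 835507, 871772, 871784 and 871932 it was 4.54, 6.7, 1.36 and 7.21 CPM at the mid-tail and 4.24, 3.62, 2.66 and 7.63 CPM at the tip. All 3 D/D rams had less APLNR at both distal positions than at the base, whereas 3 of 4 A/A rams had more at both and A/A ram 871784 had less. The change from base to mid-tail was -0.57 on the log2 scale in D/D (SE 0.34) and 0.59 in A/A (SE 0.31). Their difference was -1.16 (SE 0.46, unadjusted p = 0.0234) and did not pass (edgeR adjusted p = 0.884). From base to tip the change of APLNR was -0.23 in D/D (SE 0.34) and 0.51 in A/A (SE 0.31), with a difference of -0.75 (SE 0.45, edgeR adjusted p = 0.79).

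**Figure D4:**
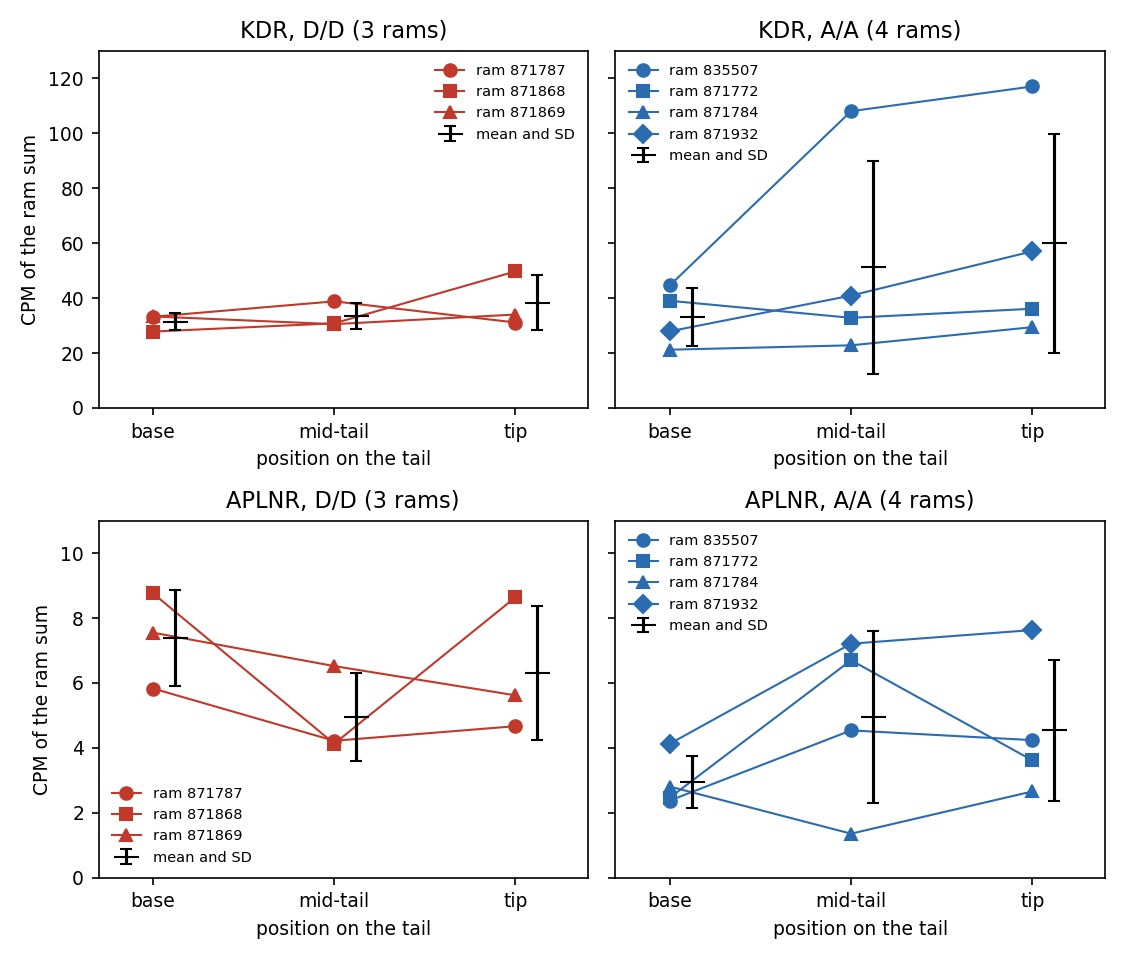
KDR (upper row) and APLNR (lower row) in CPM of the ram sum (vertical axes from 0) by position, each ram drawn as 1 line from base over mid-tail to tip, D/D on the left and A/A on the right, and black bars for mean and SD. KDR of A/A ram 835507 reaches 117 CPM at the tip, and at the base APLNR of D/D rams (5.83 to 8.76 CPM) lies above that of A/A rams (2.38 to 4.13 CPM).

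Other genes of the vasculature were read in lists by vessel type, over all 7 rams at the tip relative to the base. In this comparison edgeR called 4.99% of all genes. Of 25 other pan-endothelial genes that were tested, none was called by edgeR, with a median log2 fold change of 0, and 4 had an unadjusted p under 0.05, against 18.4% of all genes. These were the adhesion receptor ADGRL4 (0.8), the transcription factor SOX7 (0.82), the adrenomedullin co-receptor RAMP2 (-0.43) and the membrane protein MYCT1 (0.5). DESeq2 called ADGRL4 and SOX7, limma-voom called 0 genes of the list, and edgeR without ram 835507 called RAMP2. Among 10 arterial genes HEY2, a Notch target, rose to 9.17 ± 1.23 CPM at the tip, against 5.3 ± 0.882 CPM at the base (SD, n = 7 rams), in 7 of 7 rams (log2 fold change 0.8, edgeR adjusted p = 0.00123). GJA5, an arterial gap junction gene, fell by 0.79 (adjusted p = 0.034), and the call was lost when any 1 of 5 rams was left out (A/A rams 871772, 871784 and 871932 and D/D rams 871787 and 871868, adjusted p 0.0592 to 0.124). Without ram 835507 SEMA3G, a semaphorin of arterial endothelium, was called lower as well (-0.75, adjusted p = 0.0323). None of 6 venous and postcapillary genes was called in edgeR or limma-voom, DESeq2 called ICAM1, and 4 of them had an unadjusted p under 0.05, against the same 18.4% of all genes. These were the adhesion molecules ICAM1 (-0.7) and SELE (-0.46), the chemokine-binding ACKR1 (-0.67) and the venous regulator NR2F2 (0.45).

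Capillary genes moved in opposite directions, in the same fit that called 4.99% of all genes. Of 6 tested, CA4, a carbonic anhydrase of capillaries, was higher at the tip in 7 of 7 rams (13.1 ± 9.4 CPM at the tip and 4.76 ± 5.82 CPM at the base, SD, log2 fold change 1.92, edgeR adjusted p = 0.0187). BTNL9 fell by 1.7 (adjusted p = 0.012) and RGCC, a cell cycle regulator used as a capillary marker, by 0.67 (adjusted p = 0.0295), each in 6 of 7 rams. CA4 missed the threshold without D/D ram 871868 (adjusted p = 0.0576) or 871869 (0.0724), and BTNL9 without D/D ram 871869 (0.0527) or A/A ram 871932 (0.0608) and in limma-voom (-1.32, 0.0617). RGCC missed it without A/A ram 871772 (0.0659) or 871932 (0.12) and without D/D ram 871787 (0.0906) or 871869 (0.0613). Among 9 lymphatic genes the 1 called was LYVE1, a hyaluronan receptor of lymphatic endothelium that macrophages of the tissue also carry. LYVE1 was 6.66 ± 5.53 CPM at the tip and 33.9 ± 18.3 CPM at the base, lower in 7 of 7 rams (log2 fold change -2.52, SE 0.34, edgeR adjusted p = 0.000308). The median of the 9 lymphatic genes was 0.06. Of the 6 immune markers tested, CSF1R, a macrophage receptor, fell by 0.73 (adjusted p = 0.00983), and the other 5, among them LAPTM5 (0.02) and PTPRC (-0.22), were not called. The part of immune cells in the LYVE1 result was not tested. LYVE1 was called in both genotypes, at the D/D tip with -2.91 (adjusted p = 0.0266) and at the A/A tip with -2.23 (adjusted p = 0.0254).

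Of 12 ligands and co-receptors of the members, 2 fell in edgeR, where 4.99% of all genes were called. VEGFC, a ligand of KDR and of the lymphatic receptor FLT4, was 2.37 ± 1.1 CPM at the tip and 4.36 ± 1.43 CPM at the base (log2 fold change -0.91, edgeR adjusted p = 0.00773), lower in 7 of 7 rams. NRP2, a co-receptor for VEGFC, fell by 0.57 (adjusted p = 0.0128), also in 7 of 7 rams. VEGFD, a further ligand of FLT4, was at -0.7 (adjusted p = 0.0869), and was called by DESeq2 and by edgeR without ram 835507 (-0.84, adjusted p = 0.0438). APELA, a peptide ligand of APLNR, had under 1 CPM on average at every position. APLN, the gene of apelin, averaged 3.81 ± 1.45 CPM at the base, 3.77 ± 1.79 CPM at the mid-tail and 2.99 ± 1.14 CPM at the tip (SD). Among 13 mural cell markers RGS5, a pericyte gene, was 145 ± 40.1 CPM at the tip and 90.8 ± 42.3 CPM at the base (log2 fold change 0.73, adjusted p = 0.0388), and NDUFA4L2, another pericyte gene, was at 0.64 (adjusted p = 0.0387). The list did not move as a whole, since CNN1, TAGLN and CSPG4 were each lower at the tip in 5 of 7 rams. TAGLN, for example, averaged 319 ± 74 CPM at the tip and 354 ± 137 CPM at the base (SD). RGS5 missed the threshold without any 1 of 6 rams, ram 835507 among them (adjusted p 0.0567 to 0.159), and NDUFA4L2 without any 1 of 5 rams (0.0647 to 0.152).

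**Figure D5:**
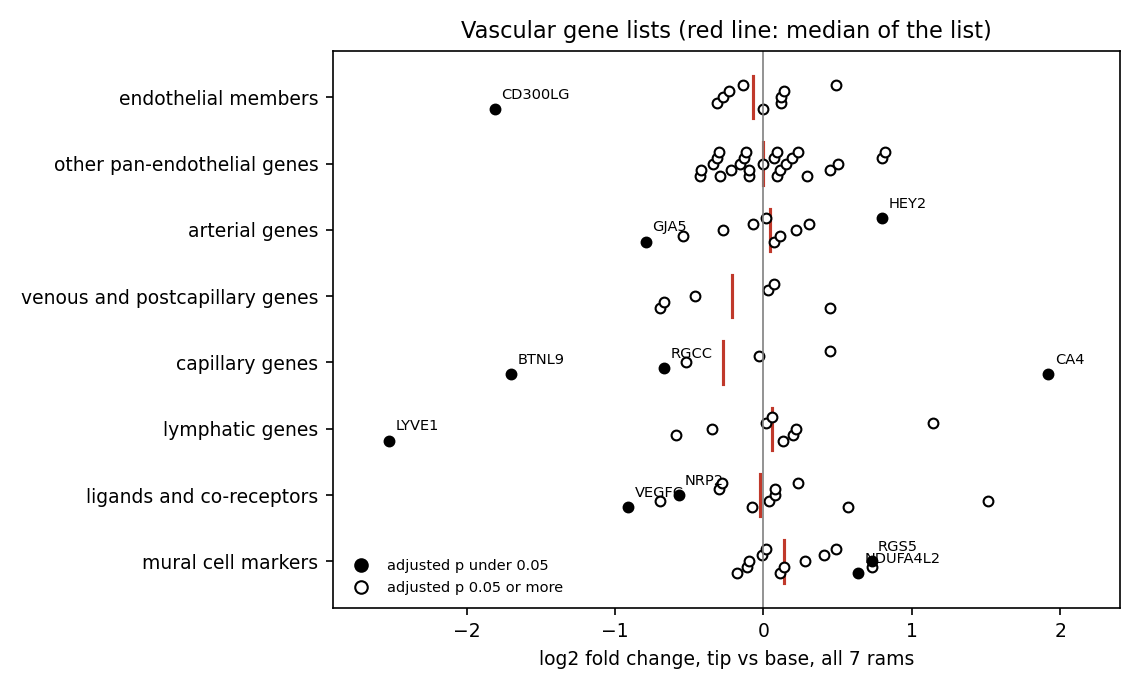
Log2 fold changes of tip over base in all 7 rams (horizontal axis) for the genes of 8 vascular lists, with filled points for an adjusted p under 0.05 and a red line at the median of each list. CD300LG (-1.81), BTNL9 (-1.7) and LYVE1 (-2.52) lie far to the left of lists whose medians are between -0.28 and 0.14.

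Markers of other skin cells also changed between base and tip, and their part in the change of CD300LG was not tested. Of all genes, edgeR called 4.99% over all rams, and 1229 of 19111 without ram 835507. Of 7 adipocyte markers CIDEC, a lipid droplet gene, was called (log2 fold change -1.87, adjusted p = 0.0131, median of the list -1.4), and without ram 835507 there were 3, with ADIPOQ and PLIN1. CIDEA was higher at the tip in 6 of 7 rams (15.9 ± 10.7 CPM, against 12.5 ± 9.84 CPM at the base, SD). PLIN4 averaged 809 ± 988 CPM at the tip and 801 ± 958 CPM at the base (SD). Summed adipocyte markers ranged over 307 to 594 CPM at the D/D tip, 562 to 1060 CPM at the D/D base, 472 to 3270 CPM at the A/A tip and 491 to 3100 CPM at the A/A base. PLIN4 had the highest average of the list in each of these groups. Of 6 fibroblast markers COL1A1 (-1.29, adjusted p = 0.0336) and COL3A1 (-1.16, adjusted p = 0.021), the main dermal collagens, fell, in 7 of 7 rams each. Of 6 keratinocyte markers KRT1, a keratin of the upper epidermis, rose by 1.34 (adjusted p = 0.0029), and all 6 were positive. None of 3 wool follicle or 5 skeletal muscle markers was called in edgeR, DESeq2 or limma-voom, and none had in edgeR an unadjusted p under 0.05. Without ram 835507 there were 3 keratinocyte markers called (KRT1, DSC3 and DSG1) and 2 immune markers (CSF1R and CD3E). Calls that ended when any of certain single rams was left out were those of CIDEC (3 rams, all D/D), COL1A1 (D/D rams 871787 and 871869 and A/A rams 871784 and 871932), COL3A1 (A/A ram 871784 and D/D ram 871869) and HBB (D/D ram 871787 and A/A ram 871932), with adjusted p-values between 0.0508 and 0.0829. HBB, 1 of 3 blood cell markers tested, was called (3.12, adjusted p = 0.0159) at under 1 CPM on average at every position. Of 6 immune markers CSF1R was called, as given above, and CD68 had no count in any library.

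Patterns over rams and positions were compared on log2(CPM + 0.5) after the mean of each ram had been subtracted, over 21 ram sums that share rams and tissue pieces. PECAM1, TEK, VWF and CDH5 followed the mean of the respective other 9 members most closely (r = 0.883, 0.821, 0.748 and 0.745), and PLVAP had r = 0.699. FLT1 (0.596), EMCN (0.514), KDR (0.404), APLNR (0.394) and CD300LG (0.287) followed it less. Among 12916 other genes with a symbol and a mean of at least 1 CPM, the mean of the 10 members was most alike to CYP2A6 (r = 0.931), MFNG (0.904), FGF10 (0.899), GRB10 (0.893), PTPRM (0.892), PARVA (0.887), TNS1 (0.881), PIP4K2B (0.879), CD34 (0.873) and MYRIP (0.872). None of these 10 was called by edgeR at the tip over all rams, with adjusted p-values of 0.203 to 0.972. They were chosen for likeness to that mean over the same ram sums, so the lack of calls is no separate result. Among the genes most alike to CD300LG were others: ZNF385D (r = 0.918), NOX5 (0.912), A2M (0.9) and ACSM5 (0.898). These 4 were lower at the tip over all rams, with log2 fold changes of -1.7, -1.46, -1.5 and -1.07 and edgeR adjusted p-values of 3.02e-05 to 0.0052. They were chosen for their likeness to CD300LG over the same ram sums, so their fall follows from the choice and is no separate result. APLNR was most alike to PLXND1 (0.917), ADCY4 (0.906), HSPG2 (0.905), RAB3IL1 (0.889) and TGFB1I1 (0.881), of which edgeR called none at the tip (adjusted p 0.508 to 0.938). The same limit of choice holds for these genes.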

How the data were processed

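The authors made the deposited counts from polyadenylated skin RNA (CorALL kit). Per the labels and the methods, they checked read quality in FastQC 0.11.9, ran ContextMap with BWA against ARS-UI_Ramb_v3.0, and counted strand-specifically with featureCounts (its version is not given in the sources used here). The 14 tip columns are filed under another unit name only because of a word in their headers: the deposited values there are whole counts as well. Gene coordinates are those of RefSeq for this build.

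The 41 libraries were summed per ram and position to 21 ram sums of 17132063 to 37645752 counts, since the labels do not say whether the 2 libraries of a ram and position come from separate punches. On these sums edgeR 4.0.16 (R 4.3.3) was fitted with its quasi-likelihood method (TMM, edgeR's filter on low counts, Benjamini-Hochberg over all genes tested). Positions were compared with the ram as block, because the labels give the same rams for all positions. Deviations of the same ram correlated over 0.1 in 20 of 21 pairs (range 0.0175 to 0.872, median 0.493). Genotypes were compared per position without a block. Rose, fell and called refer to an adjusted p under 0.05. Exact tests permuted rams, two-sided. The p-values of genotype comparisons rest on 3 and 4 rams. In simulated counts for the comparison of tip and base over all rams, the tests were checked on 18944 genes.

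The 10 members and all gene lists were chosen with earlier results of these data known. By rule, all members are named, at most 4 genes per other list, those with the smallest p, and the genes most alike in pattern; some results under this rule are not reported here. Alternatives were DESeq2 1.42.0, limma-voom (limma 3.58.1), RLE normalization, library totals, other filters (none, or 1 CPM in 3 ram sums), no ram block, single libraries, the library number as block, each library alone, each genotype alone and each ram left out. Counts per list without ram 835507 were added after the data were seen.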

Additional observations from a re-analysis of the deposited data

Results flagged for a closer look

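In the A/A groups of 4 rams, 6 of 30 member and position values were flagged because 1 ram lay far from the other 3, by the gap to its nearest neighbour over the range of the group. For independent, normally distributed values chance flags about 1 in 20 such groups. The members come from the same rams and are not independent, so this rate is no test of the number flagged. Ram 835507 was the far ram in 4 of them. Its CDH5 at the A/A tip was 44.5 CPM, against 23.7 to 26.5 CPM in the other A/A rams, and its TEK at the A/A mid-tail was 27.5 CPM, against 12 to 13.7 CPM. Its EMCN at the A/A mid-tail was 58.2 CPM, against 22.3 to 24.8 CPM, and its CD300LG at the A/A tip was 9.38 CPM, against 1.58 to 2.48 CPM. The other 2 came from the base of A/A ram 871772, where PECAM1 was 201 CPM, against 115 to 127 CPM in the other A/A rams, and EMCN was 47.4 CPM, against 20.9 to 24.8 CPM. No member's positional change was flagged as different between D/D and A/A rams.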

How the results depend on the processing

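Across 18 alternatives CD300LG stayed negative at the tip over all rams (-2.15 to -1.54 on the log2 scale) and was called in 17. Without the replicate block (ram) 0 members were called over all rams and 0 at the D/D tip, where library 1 alone gave 0 too. Of all genes, the fit without this block called 181 of 19029 over all rams and 2 of 19029 at the D/D tip. Library 1 alone called 26 of 18212 at the D/D tip. At the A/A tip DESeq2 and no filter on low counts each called 1 member (CD300LG), and single libraries, with or without the library number as replicate block, called 2 (CD300LG and KDR), the same 2 as over all rams. Of all genes at the A/A tip, DESeq2 called 836 of 19444 and no filter 373 of 26588. Single libraries called 1337 of 18297 there (1281 with that block), and 2129 over all rams (2094 with that block). CD300LG was also the 1 member called at the D/D mid-tail by DESeq2, single libraries (with or without that block) and each genotype on its own, and at the mid-tail over all rams by DESeq2 and single libraries (with or without that block). At the D/D mid-tail DESeq2 called 40 of 19444 genes, single libraries 59 of 18297 (42 with that block) and the genotype on its own 25 of 18512. At the mid-tail over all rams DESeq2 called 280 of 19444 genes and single libraries 432 of 18297 (442 with that block). DESeq2 called 1 member, APLNR, between genotypes at the base, and 18 of 17738 genes in all. With single rams left out, 0 to 1 members were called at the A/A tip, at the D/D tip and at the mid-tail over all rams. Of all genes, 68 to 286 were called at the A/A tip, 1 to 206 at the D/D tip and 10 to 88 at the mid-tail over all rams.

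Members near 0 changed sign. FLT1 over all rams at the tip was -0.02 with library totals, -0.00035 with 1 CPM in 3 ram sums, -0.0045 with single libraries and -0.23 with library 1. At the A/A tip library 2 gave 0.46 for FLT1, 0.0023 for TEK and -0.03 for VWF, and library 1 gave -0.00049 for VWF. At the D/D tip library totals gave -0.02 for FLT1 and -0.03 for EMCN, and library 2 gave -0.14 for EMCN. With single rams left out, the range at the tip over all rams was -0.07 to 0.11 for FLT1 and -0.0034 to 0.27 for EMCN. At the A/A tip it was -0.11 to 0.25 for CDH5, -0.17 to 0.18 for FLT1, -0.42 to 0.33 for TEK, -0.21 to 0.15 for VWF and -0.07 to 0.5 for EMCN. At the D/D tip it was -0.52 to 0.0025 for PECAM1, -0.11 to 0.34 for CDH5, -0.03 to 0.43 for KDR, -0.11 to 0.19 for FLT1 and -0.31 to 0.28 for EMCN. The cause was not tested.

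The numbers of 3 and 4 rams and, for CD300LG, sums of 21 to 283 counts limit the precision.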
